A study of Mus musculus with 9 samples.

Results

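The midbrains of embryos labelled het, which carry 1 *Nkx2.9* LacZ allele and 1 intact allele (*Nkx2.9* LacZ/+), were compared with those labelled wt (*Nkx2.9*+/+) over the whole transcriptome. The members are the 6 libraries whose columns carry these genotypes, columns 4 to 6 labelled het and columns 7 to 9 labelled wt, out of 9 libraries in the series. Genes entered the comparison when their normalized count averaged at least 5 over the 9 libraries, which left 16993 of 51912 genes. A normalized count is the number of reads on a gene divided by a size factor that evens out the depth of the libraries. RNA was taken from the dissected midbrain of C57BL/6 mouse embryos at E14.5, and according to the methods a pair of midbrains was pooled for each library. The remaining 3 libraries, labelled ko (*Nkx2.9* LacZ/LacZ), entered the fit only for its estimate of the spread. In the LacZ allele the first exon of *Nkx2.9* is replaced by a nuclear LacZ reporter, so the midbrains labelled het also carry a bacterial gene that those labelled wt lack. All groups share the background strain, the stage and the dissection. With pools of this kind the p-values measure the spread between pools, and the labels do not say how embryos or litters were spread over them.

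*Nkx2.9* (gene symbol *Nkx2-9*) encodes a homeobox transcription factor of the NK2 family, a relative of *Nkx2-2*. Both act in the ventral neural tube, where the Hedgehog signal from the floor plate switches on transcription factors that assign cell identities. In the midbrain the mesodiencephalic dopaminergic (mdDA) neurons arise beside this signal, and the isthmic organizer at the border with the hindbrain, marked by *En1*, *En2*, *Pax5* and *Fgf8*, helps to set their caudal limit. The comparison of the heterozygote with the wild type asks whether the midbrain transcriptome differs when 1 copy of *Nkx2.9* is replaced by the reporter.

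*Nkx2-9*, the gene that carries the allele, comes first. *Nkx2-9* (ENSMUSG00000058669, minus strand of chromosome 12 from 56611389 to 56613284, GRCm38) had 0, 7 and 4 reads in columns 4, 5 and 6, labelled het, and 0, 2 and 2 reads in columns 7, 8 and 9, labelled wt. The mean normalized counts were 3.08 ± 2.99 (SD, n = 3) for the label het and 0.959 ± 0.831 (SD, n = 3) for the label wt. The groups overlap, and the gene lies under the minimum for testing. In a fit without that minimum its log2 fold change was 0.77 ± 0.78 (SE). The reads did not show a lower *Nkx2-9* level under the label het, and they are too few to check the genotypes. The LacZ allele replaces the first exon, and whether reads from its remaining part were counted was not tested. The genotypes below are those of the labels.

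The 6 libraries differed in depth. The libraries labelled het held 2584074, 4913884 and 5241154 reads on genes in columns 4, 5 and 6, and those labelled wt held 1692963, 5942192 and 5808057 in columns 7, 8 and 9. Each group thus has 1 shallow library, column 4 among those labelled het and column 7 among those labelled wt. There 1 read is worth 1.63 and 2.59 normalized counts, against 0.702 to 0.854 in the other 4 libraries. Of the tested genes, 22.2% rested on fewer than 10 reads in column 4 and 30.2% in column 7, against 7.62% to 11.5% in columns 5, 6, 8 and 9. Reads of small non-coding RNAs made up 7.08% of column 4, 7.91% of column 7 and 8.90% of column 9, against 4.16% to 4.48% in the other 3. All 37 genes of the mitochondrial genome are listed at 0 in every library.

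**Figure D1:**
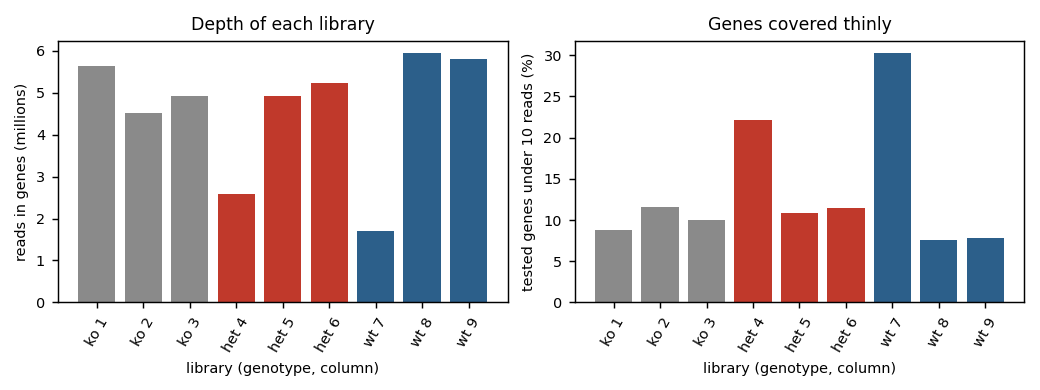
Reads on genes (left) and the share of tested genes with fewer than 10 reads in percent (right), 1 bar for each library, red for libraries labelled het, blue for wt and grey for ko. Columns 4 and 7 hold the fewest reads, 2584074 and 1692963, and the largest shares of thinly covered genes.

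Column 4 also stood apart from the other libraries in many gene lists, regional ones among them. When each library was set against the other 2 of its label, the median absolute difference over the tested genes was 0.396 on the log2 scale for column 4 and 0.215 to 0.298 for the other 5 libraries. At the 90th percentile of the genes column 7 was the farthest, at 1.16, followed by column 4 at 1.09, against 0.85 to 0.87. The summed normalized count of the 20 isthmic organizer genes was 3002 in column 4 and 1891 and 1735 in columns 5 and 6, beside 2441, 2032 and 2396 in columns 7, 8 and 9. The 24 mdDA genes summed to 5947 in column 4, against 4328 and 4655 in the other libraries labelled het and 4664 to 4976 in those labelled wt. The reverse held for the dorsal midbrain list, at 4006 in column 4 and 4967 to 5876 elsewhere, and for the forebrain and diencephalon list, at 3572 against 4438 to 5265. These 4 lists were chosen after their values were seen. In some other lists of midbrain and hindbrain cells column 4 lay within the range of the other 5 libraries, at 1724 against 1709 to 1896 for the rostral hindbrain and cerebellum, 1248 against 1113 to 1315 for serotonergic neurons and 5332 against 5090 to 5404 for midbrain GABAergic neurons. In the glutamatergic and red nucleus list it was the lowest, at 4557 against 5653 to 6644. Its departure was not limited to regional genes. Of the 48 lists with reads, the sum of column 4 lay outside the range of the other 5 libraries in 29, as the highest in 17 and the lowest in 12, against 22 lists for column 6 and 6 to 14 for the others. Examples are the Wnt pathway, at 14905 against 16962 to 19157, splicing factors, at 50542 against 54008 to 60853, and imprinted genes, at 45343 against 38332 to 42369. Lists share some genes, and abundant genes weigh most in a sum. *Tcf7l2*, with a mean of 3201 under the label het and 3192 under wt, is in the forebrain, glutamatergic and Wnt lists. *En1* and *En2* are in both the isthmic and the mdDA list, and the mdDA sum also holds *Ebf3* (1736 and 1679). The part of the dissection in these values was not tested, and medians of regional lists are given with and without column 4.

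**Figure D2:**
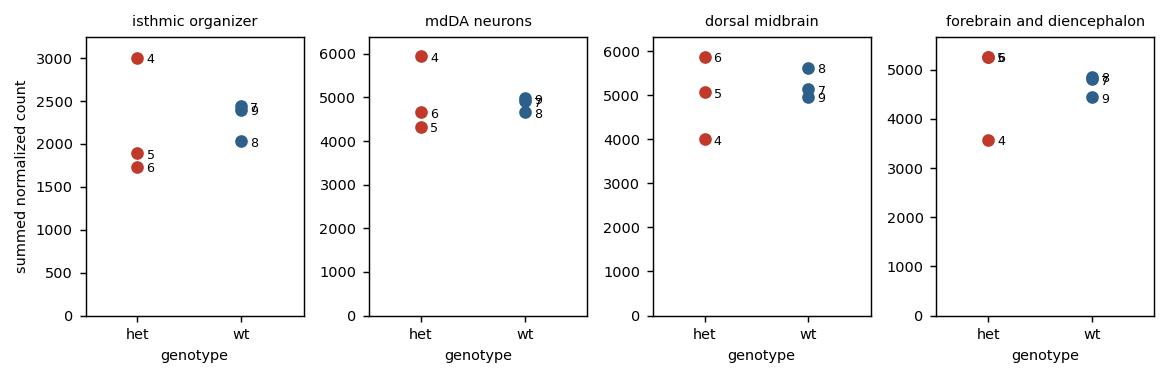
Summed normalized count of 4 regional gene lists in each library, labelled het (red) or wt (blue), with the column number beside each point. Column 4 is the highest point for the isthmic organizer (3002) and mdDA neurons (5947) and the lowest for the dorsal midbrain (4006) and the forebrain and diencephalon (3572).

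No gene passed the adjusted test between the libraries labelled het and wt. In limma, 0 of 16993 genes (0.00%) reached 0.05 after adjustment, and every tested gene had an adjusted p of 1. Before adjustment 473 genes (2.78%) passed 0.05, with 222 (1.31%) higher and 251 (1.48%) lower under the label het, and 5% of the genes tested would be 850. edgeR on the recovered reads gave 372 genes with an unadjusted p under 0.05 and 0 after adjustment. DESeq2 gave 264 and 1, the small nuclear RNA gene *Gm23287*. The values of 1174 genes (6.91%) did not overlap between the 3 libraries of each label, 577 (3.40%) higher and 597 (3.51%) lower, and 164 and 177 of these also had an unadjusted p under 0.05. The median log2 fold change over all tested genes was -0.007.

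The genes with a small p were mostly genes with few reads. Among 4503 genes that averaged 5 to 20 normalized counts, 4.66% had an unadjusted p under 0.05, and the median size of the log2 fold change of these genes was 1.58. This share was 3.65% of the 4990 genes from 20 to 100 and 1.15% of the 6804 genes from 100 to 1000. Among the 696 genes at 1000 or above it was 0.431%, 3 genes, all small non-coding RNAs and all lower. Over all genes of these 4 ranges the median size of the log2 fold change was 0.43, 0.18, 0.09 and 0.05. The median SE fell along with it, at 0.56, 0.27, 0.16 and 0.12, and was the larger value in each range. *Tuba1a*, an alpha-tubulin of growing neurons, had 21476, 17277 and 18965 normalized counts in columns 4, 5 and 6 and 20984, 18371 and 17029 in columns 7, 8 and 9.

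**Figure D3:**
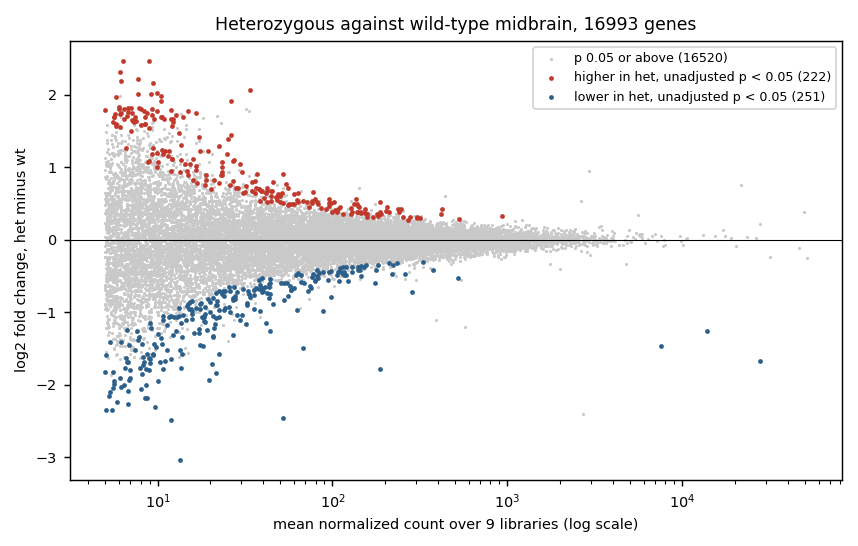
Log2 fold change of libraries labelled het minus wt (vertical axis) against the mean normalized count over 9 libraries (horizontal axis, log scale), 1 point for each of 16993 genes. Red points (222) and blue points (251) have an unadjusted limma p under 0.05, and the cloud narrows from a median size of 0.43 at 5 to 20 normalized counts to 0.05 at 1000 and above.

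The calls depended on which libraries were used. Without column 4, 933 genes passed an unadjusted 0.05 in limma, and without columns 4 and 7 there were 852, with 0 adjusted calls and a smallest adjusted p of 0.131. Without column 7 there were 445. The balance of directions moved with single libraries as well, from 216 higher and 430 lower without column 5 to 399 higher and 203 lower without column 9. Of the 473 genes, 68 had an unadjusted p under 0.05 in each of the 6 fits that left out 1 library, 27 higher and 41 lower, and 2 had it in none. None of the 473 turned its direction in these 6 fits, which share most libraries with the fit that chose these genes. A turn was therefore unlikely from the start.

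**Figure D4:**
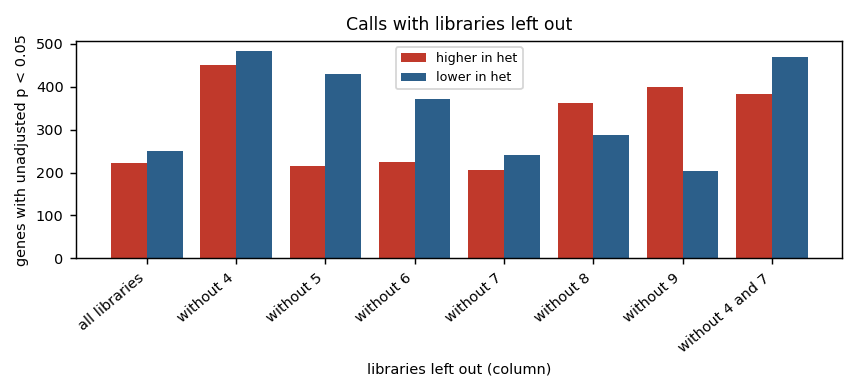
Number of genes with an unadjusted limma p under 0.05 with all libraries, without each library in turn and without columns 4 and 7, red for higher and blue for lower in libraries labelled het. The bars run from 445 genes in all without column 7 to 933 without column 4, against 473 with all libraries.

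Genes higher in the libraries labelled het were led by a few with modest read numbers. The 12 with the smallest p among those that did not overlap included *Aste1*, *Arsg*, *Ankmy1*, *A430110L20Rik*, *Gm6485*, *Mchr1*, *Lrp11*, *Timeless*, *Cpt2*, *Dgka* and *Wnt8b*. *Aste1* (chromosome 9 from 105395392 to 105412229) had 52.2, 67.5 and 70.2 normalized counts in columns 4, 5 and 6 and 25.9, 42.1 and 32.4 in columns 7, 8 and 9, a log2 fold change of 0.91 ± 0.24 (SE). Fold changes here are differences of mean log2(normalized count + 1), and for genes with few reads they can lie above or below those of a count model. Every library labelled het lay above every library labelled wt, but *Aste1* overlaps *Nek11* and *Atp2c1*, and reads from them could not be set apart where strand was not used. *Lrp11*, a relative of the low-density lipoprotein receptor, was the most abundant of the 12. It had 199, 234 and 218 normalized counts under the label het and 137, 180 and 139 under wt, a log2 fold change of 0.52 ± 0.16 (SE). It overlaps Gm16254.

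Others of the 12 encode enzymes and receptors. *Cpt2*, the inner-membrane carnitine palmitoyltransferase that brings long-chain fatty acids into mitochondria, had 39.1, 33.3 and 30.2 normalized counts in columns 4 to 6 and 5.17, 19.6 and 17.7 in columns 7 to 9. Its log2 fold change of 1.39 ± 0.43 (SE) was 0.83 without column 7, its lowest library, and 0.74 without columns 4 and 7, where its unadjusted p was no longer under 0.05. For all libraries edgeR gave 1.05. *Arsg*, a lysosomal arylsulfatase that overlaps *Slc16a6*, had 6, 17 and 28 reads in columns 4 to 6 and 0, 4 and 7 reads in columns 7 to 9. *Mchr1*, a receptor for the peptide melanin-concentrating hormone, had 26.1, 16.2 and 20.4 against 5.17, 4.91 and 11.8 normalized counts. Both were separated between the labels, as all 12 are by the way they were chosen. Both lay near the lower end of the tested range. *Timeless*, which protects replication forks, had 92.9, 52.9 and 60.4 normalized counts against 38.8, 42.1 and 35.3, with column 4 the highest. *Dgka*, a diacylglycerol kinase, had 63.6, 41.8 and 32.6 against 25.9, 21.1 and 22.8, again with column 4 the highest.

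*Wnt8b*, a secreted Wnt ligand of the forebrain and midbrain roof, was among these leading genes. It had 9.78, 17.1 and 24.5 normalized counts in columns 4, 5 and 6 and 5.17, 8.42 and 1.47 in columns 7, 8 and 9. All 3 libraries labelled het lay above the 3 labelled wt, and its log2 fold change was 1.70 ± 0.55 (SE). It ran from 1.16 without column 9 to 2.13 without column 8, with an unadjusted p under 0.05 in all 6 fits that left out 1 library. An exact permutation test of 3 libraries against 3 gave a two-sided p of 0.1, the smallest it allows. Every gene chosen for values that do not overlap has this p, so the test adds nothing to the choice. With all libraries thinned to the depth of column 7 the log2 fold change was 1.16 and its unadjusted p no longer under 0.05. In the libraries labelled ko *Wnt8b* had 30.9, 13.7 and 15.5 normalized counts, a log2 fold change of 1.92 against the label wt. The paper reports the other direction, a lower *Wnt8b* level in LacZ/LacZ midbrain. The reason for this difference was not tested.

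The *Wnt8b* promoter was also the only one of 13 leading genes with a RefSeq promoter (GRCm38.p6) that held the core letters bound by NK2 factors, TNAAGTG on either strand, in the 300 bases around the start. This stretch of 30 bases at chr19:44493382-44493411 on the plus strand is shown because it holds the match, in capitals and in reverse orientation, 79 to 73 bases before the start of the gene.
Wnt8b: tctttctctggCACTTGAgttctgattggc
Matches of this length are common. They occurred in 11.5% of all promoters in the table, in 10.5% of the 11136 tested genes with a promoter, in 14.3% of the 133 higher genes (unadjusted p under 0.05) with a promoter and in 9.82% of the 112 lower ones. The shares are a description of letters and not of binding.

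**Figure D5:**
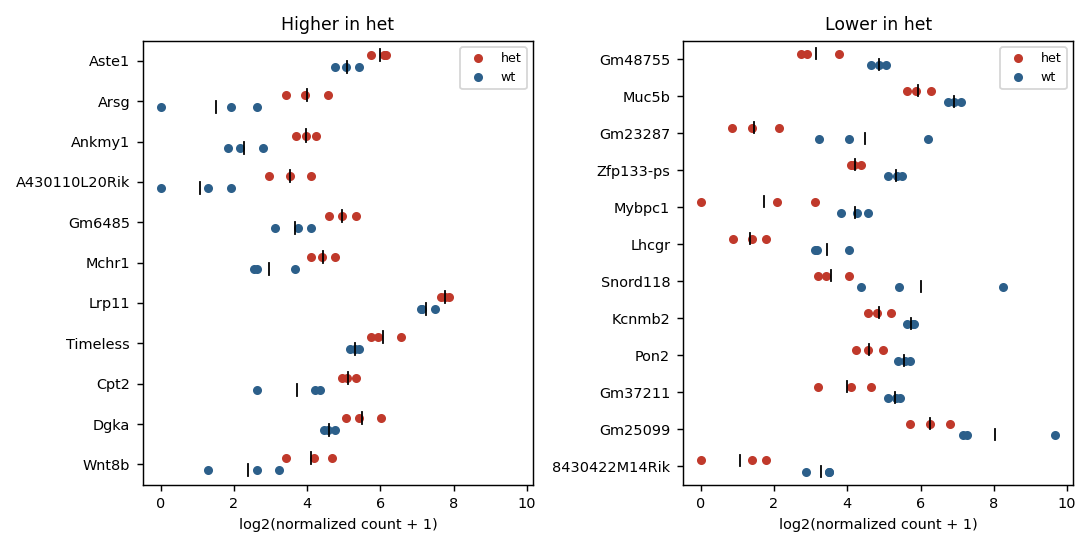
Normalized counts, on the log2(count + 1) scale, of 11 higher and 12 lower genes among the 12 in each direction with the smallest p whose values did not overlap, with 1 point for each library labelled het (red) or wt (blue) and a bar at the mean. *Lrp11* has the highest normalized counts of the higher genes drawn (137 to 234), and *Snord118* and *Gm25099* are spread widely among the libraries labelled wt because column 9 is high (304 and 821).

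Genes lower in the libraries labelled het were led by *Gm48755*, *Muc5b*, *Gm23287*, *Zfp133-ps*, *Mybpc1*, *Lhcgr*, *Snord118*, *Kcnmb2*, *Pon2*, *Gm37211*, *Gm25099* and *8430422M14Rik*. *Muc5b* (chromosome 7 from 141839070 to 141873084), a gel-forming mucin, had 48.9, 77.7 and 57.9 normalized counts in columns 4, 5 and 6 and 137, 119 and 106 in columns 7, 8 and 9. The log2 fold change was -0.98 ± 0.22 (SE) and ran from -1.16 to -0.83 when single libraries were left out. A pair of secretoglobin genes, chosen here after their values were seen and not from a list, were lower as well. *Scgb3a1* had 16.3, 16.2 and 18.8 against 41.4, 28.8 and 36.1 normalized counts, and *Scgb3a2* had 14.7, 13.7 and 14.7 against 31.0, 36.5 and 32.4. Their log2 fold changes were -1.0 and -1.16, and the unadjusted p of both stayed under 0.05 in all 6 fits that left out 1 library.

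Further lower genes encode a channel subunit, a receptor and an enzyme. *Kcnmb2*, an auxiliary subunit of large-conductance calcium-activated potassium channels, had 22.8, 27.3 and 35.9 normalized counts in columns 4 to 6 and 54.3, 48.4 and 55.2 in columns 7 to 9, a log2 fold change of -0.88 ± 0.25 (SE). *Pon2*, a membrane-bound paraoxonase, had 17.9, 30.7 and 22.8 against 46.5, 51.2 and 40.5. Neither gene overlapped between the labels, which holds for all leading genes by the way they were chosen. *Lhcgr*, the receptor for luteinizing hormone, and *Mybpc1*, a myosin-binding protein of muscle, were near the floor. *Lhcgr* had 1.63, 0.854 and 2.45 against 15.5, 7.72 and 8.10 normalized counts, and *Mybpc1* had 0, 7.68 and 3.26 against 18.1, 22.5 and 13.2. *Zfp133-ps*, a unitary pseudogene of a zinc finger gene that overlaps *Dzank1*, had 19.6, 17.1 and 16.3 against 44.0, 40 and 33.9. *Gm48755* had the smallest unadjusted p of all tested genes, with 6.52, 12.8 and 5.71 normalized counts against 28.4, 23.9 and 32.4.

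In the mdDA neuron list, all 24 genes were tested, 1 had an unadjusted p under 0.05 (4.17%, beside 2.78% of all tested genes), and the median log2 fold change was 0.06 with all libraries and -0.05 without column 4. In a bulk sample fewer cells of a type and less RNA per cell cannot be told apart. The 1 gene was *Gch1*, GTP cyclohydrolase, which starts the synthesis of the cofactor that tyrosine and tryptophan hydroxylases need. *Gch1* (minus strand of chromosome 14 from 47153895 to 47189413) had 13.0, 16.2 and 15.5 normalized counts in columns 4 to 6 and 44.0, 23.2 and 33.9 in columns 7 to 9. The 3 libraries labelled het were close together and below those labelled wt, with a log2 fold change of -1.08 ± 0.36 (SE), and without each library in turn it stayed between -1.32 and -0.87 with an unadjusted p under 0.05. Without columns 4 and 7 together it was -0.78 and no longer passed. *Gch1* overlaps Gm18811 and Gm49134. The libraries labelled ko had 21.8, 17.4 and 10.3.

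The genes that define the dopaminergic phenotype gave no unadjusted p under 0.05 with all libraries. *Th*, the tyrosine hydroxylase that limits dopamine synthesis, had 187, 60.6 and 73.4 normalized counts in columns 4, 5 and 6 and 69.8, 51.2 and 77.3 in columns 7, 8 and 9. Column 4 was far above the rest, and the log2 fold change of 0.53 ± 0.33 (SE) was 0.03 without it and 0.84, with an unadjusted p under 0.05, without column 5. *Slc6a3*, the dopamine transporter (Dat), had 57.0, 55.5 and 65.3 against 59.5, 58.9 and 47.8 normalized counts, so the ranges overlap. *Nr4a2* (Nurr1), a nuclear receptor needed for mdDA identity, had 389, 318 and 387 against 259, 357 and 284, a log2 fold change of 0.29 ± 0.15 (SE) that was 0.24 without column 4. *Pitx3*, a homeobox factor of the same neurons, had 32.6, 21.3 and 32.6 against 33.6, 37.2 and 35.3, without overlap but with a log2 fold change of only -0.31 ± 0.30 (SE), or -0.41 without column 4. *Cck*, a peptide of caudal mdDA neurons, had 29.3, 19.6 and 21.2 against 38.8, 14.7 and 23.6. Both *Nr4a2* and *Cck* overlapped between the labels.

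The isthmic organizer list is given with and without column 4. Of its 20 genes 16 were tested, 0 had an unadjusted p under 0.05, and the median log2 fold change was -0.13 with all libraries, -0.23 without column 4 and 0.08 without column 6. *En1* (chromosome 1 from 120602418 to 120607992) had 407, 202 and 172 normalized counts in columns 4, 5 and 6 and 274, 225 and 322 in columns 7, 8 and 9, so column 4 was the highest of the 6 and the other libraries labelled het the lowest. Its log2 fold change was -0.16 ± 0.25 (SE) and moved to -0.54 without column 4, with an unadjusted p under 0.05. *En2*, the other engrailed gene, had 407, 219 and 202 against 352, 323 and 358, a log2 fold change of -0.39 ± 0.21 (SE), or -0.70 without column 4, again with an unadjusted p under 0.05. It overlaps *Gm43610*. *Pax5*, a paired-box factor of the same border, had 1229, 731 and 696 against 879, 757 and 906, with column 4 again the highest, and its log2 fold change was 0.02 with all libraries and -0.24 without column 4. Leaving out any of the other 5 libraries left the unadjusted p of *En1* and *En2* above 0.05.

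The lists of 3 neighbouring regions follow. All 16 dorsal midbrain genes were tested, 0 had an unadjusted p under 0.05, and the median log2 fold change of -0.09 turned to 0.10 without column 4. *Pax7*, a paired-box factor of the dorsal midbrain, had 300, 176 and 198 normalized counts in columns 4 to 6 and 318, 254 and 221 in columns 7 to 9. Its log2 fold change was -0.26 ± 0.22 (SE), or -0.48 with an unadjusted p under 0.05 without column 4. The forebrain and diencephalon list had 19 of 26 genes tested. Of these 1 was higher (*Wnt8b*) and 1 lower (*Otp*) at an unadjusted p under 0.05 (10.5%, beside 2.78% of all tested genes). The median of -0.04 became 0.45 without column 4 and -0.28 without column 6. With all libraries it was 0.24 in edgeR and 0.20 with log2 *Xist* as a covariate. *Otp*, a homeobox factor of hypothalamic neurons, had 35.9, 8.54 and 0.816 against 69.8, 16.1 and 22.8 normalized counts, with the highest value of each label in its shallow library, and its log2 fold change of -1.83 was -2.88 without column 4 and -0.71 without column 6. For the rostral hindbrain and cerebellum 0 of 12 tested genes passed, and the median was -0.14 with all libraries and -0.13 without column 4. It ran from -0.19 to -0.07 when single libraries were left out.

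The serotonergic list also held no gene with an unadjusted p under 0.05 among 10 tested, with a median of -0.03, or -0.06 without column 4. *Tph2*, which starts serotonin synthesis in the brain, had 21.2, 11.1 and 14.7 normalized counts in columns 4 to 6 and 31.0, 16.8 and 33.9 in columns 7 to 9, a log2 fold change of -0.75 ± 0.46 (SE), or -0.98 without column 4. The ranges overlap between 16.8 and 21.2. Lists of midbrain GABAergic neurons (17 tested, median 0.00), glutamatergic and red nucleus neurons (10 tested, median -0.02) and oculomotor and cholinergic neurons (8 tested, median 0.03) had 0 genes at this threshold. Without column 4 the medians of the last 2 of these lists were 0.06 and -0.08.

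Among signalling pathways, up to 3 genes of a list had an unadjusted p under 0.05, 7.14% of the tested genes in the Wnt list and as much in the Notch list, beside 2.78% of all tested genes. In the Wnt pathway 42 of 52 genes were tested, with a median log2 fold change of -0.04. Beside *Wnt8b*, *Lrp5*, a Wnt co-receptor, had 68.4, 63.2 and 53.8 normalized counts in columns 4 to 6 and 36.2, 47.0 and 42.7 in columns 7 to 9 (log2 fold change 0.55 ± 0.22, SE). *Sp5*, a zinc finger factor and Wnt target, had 16.3, 18.8 and 45.7 against 62.1, 50.5 and 30.9, with column 6 inside the range of the label wt. In the Notch pathway 28 genes were tested, with 1 higher and 1 lower. *Psen2*, a catalytic subunit of gamma-secretase, had 55.4, 49.5 and 30.2 against 36.2, 28.8 and 17.7 and overlapped between the labels, while *Maml2*, a Notch co-activator, had 86.4, 113 and 117 against 150, 138 and 140 and did not.

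The retinoic acid list had 14 of 19 genes tested, 2 higher and 0 lower (14.3%, beside 2.78% of all tested genes), and a median of -0.04. *Rarb*, a retinoic acid receptor and 1 of the 2, had 45.6, 64.0 and 31.0 against 20.7, 27.4 and 28.7, without overlap. It overlaps *Top2b*. The Hedgehog pathway, which acts upstream of NK2 genes in the ventral neural tube, had 18 of 20 genes tested, 0 with an unadjusted p under 0.05 and a median of -0.06. *Ptch1*, its receptor and target, had 714, 655 and 672 against 667, 649 and 665 normalized counts. *Nkx2-2*, the relative of *Nkx2-9*, averaged 92.5 under the label het and 74.5 under wt, with a log2 fold change of 0.33.

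In the lists of axon guidance and synapses the share with an unadjusted p under 0.05 was 6.67% for semaphorins, plexins and neuropilins, 2.94% for glutamate and GABA receptors and 4.35% for neuropeptides and receptors, beside 2.78% of all tested genes. Of 36 Eph, ephrin, Slit, Robo and netrin genes, 0 had an unadjusted p under 0.05 and the median log2 fold change was 0.03. Of 30 semaphorins, plexins and neuropilins tested, *Plxna2*, a plexin receptor, was higher (973, 1129 and 939 against 900, 833 and 694 normalized counts) and *Sema3a*, a secreted semaphorin, lower (35.9, 37.6 and 27.7 against 51.7, 49.1 and 44.2). Neither gene overlapped between the labels, and their unadjusted p stayed under 0.05 in 4 and 2 of the 6 fits that left out 1 library. Of 34 glutamate and GABA receptor genes, 1 was higher, *Grm4*, a metabotropic glutamate receptor, with 209, 152 and 172 against 132, 146 and 136. Of 35 genes of synaptic vesicles and secretory granules, 0 had an unadjusted p under 0.05. Of 23 neuropeptide and receptor genes tested, 1 was lower, *Oprm1*, the mu opioid receptor, with 4.89, 6.83 and 16.3 against 23.3, 16.8 and 15.5 normalized counts.

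The cell cycle list held genes of both directions. Of 46 genes tested 3 were higher and 2 lower at an unadjusted p under 0.05 (10.9%, beside 2.78% of all tested genes), 0 passed after adjustment in limma, and the median was 0.05, or 0.01 to 0.07 without single libraries. *Plk1*, a mitotic kinase, had 39.1, 27.3 and 25.3 normalized counts in columns 4 to 6 and 15.5, 18.2 and 18.4 in columns 7 to 9, and *Cdc20*, an activator of the anaphase-promoting complex, had 19.6, 30.7 and 26.1 against 10.3, 17.5 and 16.2. *E2f1*, a factor that drives S-phase genes, had 16.3, 18.8 and 14.7 against 0, 16.1 and 9.57, overlapped between the labels and had a log2 fold change of 1.63 that was 0.38 without column 7 and 0.66 in edgeR. *Ccna2*, cyclin A2, had 14.7, 43.5 and 57.9 against 72.4, 51.9 and 58.2, with column 4 the lowest, and *Gins1*, of the replicative helicase, had 3.26, 12 and 11.4 against 31.0, 13.3 and 18.4. The summed list ran from 2622 in column 4 to 3352 in column 6 under the label het and from 2803 to 3120 under wt. In the radial glia list, the progenitors of the midbrain, 0 of 20 genes had an unadjusted p under 0.05 and the median was -0.07.

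Among lists of transcription factors and adhesion molecules the shares with an unadjusted p under 0.05 were 5.56% for proneural bHLH, 6.67% for immediate-early, 2.01% for zinc finger and 3.64% for protocadherin genes, beside 2.78% of all tested genes. Of 18 genes tested in the proneural bHLH list, 1 was higher, *Id2*, an inhibitor of bHLH factors. It had 135, 117 and 131 normalized counts against 75, 103 and 110. The list also holds *Insm1* and the Ebf and Id genes, which are not proneural bHLH factors. Of 15 immediate-early genes tested, 1 was lower, *Klf4*, with 19.6, 10.2 and 0.816 against 23.3, 16.1 and 22.8, where the value in column 4 lay within the range of the label wt. Of 348 zinc finger genes named Zfp, 2 were higher and 5 lower, with a median of 0.00. Of 42 chromatin remodelling genes and 47 splicing factors of the SR and hnRNP families, 0 had an unadjusted p under 0.05, with medians of 0.01 and -0.03. The clustered protocadherins, adhesion molecules that give neurons single-cell identities, had 55 genes tested, 2 higher and 0 lower. These were *Pcdhb7* (99.4, 97.3 and 108 against 75, 73.7 and 63.3) and *Pcdhac1* (50.5, 55.5 and 52.2 against 20.7, 39.3 and 38.3). *Pcdhb7* overlaps Gm37013, Gm37388 and Gm42416, and genes of some protocadherin clusters share exons, so these counts are uncertain.

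Markers of other cell types in the dissected tissue were examined for each label. The oligodendrocyte list (14 tested), microglia (10 tested), pericytes (10 tested), blood and globins (9 tested) and choroid plexus (12 tested) had 0 genes with an unadjusted p under 0.05, with medians from -0.14 for microglia to 0.11 for blood. *Hba-a1*, a globin, had 730, 582 and 521 normalized counts in columns 4 to 6 and 615, 470 and 446 in columns 7 to 9. The summed blood list was highest in the shallow library of each label, at 2280 in column 4 and 2203 in column 7, against 1507 to 1845 in the others. The summed choroid plexus list was 709 to 862 under the label het and 706 to 796 under wt. The endothelial list had 19 genes tested and 1 lower (5.26%, beside 2.78% of all tested genes), *Abcb1a*, an efflux transporter of the blood-brain barrier, with 3.26, 23.1 and 10.6 against 28.4, 27.4 and 17.7.

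With all libraries the meninges and collagens list had the lowest median of the cell type lists. It was -0.29 over 18 tested genes, beside -0.007 over all genes. The median was between -0.28 and -0.16 when single libraries were left out. The rank was lost without column 6, where this list was at -0.18 and the forebrain and diencephalon list at -0.28. *Col1a1*, a fibrillar collagen of connective tissue, had 31.0, 46.1 and 48.1 normalized counts in columns 4 to 6 and 62.1, 64.6 and 87.6 in columns 7 to 9, a log2 fold change of -0.77 ± 0.25 (SE). It was the 1 gene of the list (5.56%) with an unadjusted p under 0.05, and it kept this in all 6 fits that left out 1 library. *Col3a1*, which did not pass, had a log2 fold change of -0.49, and *Col4a1*, of basement membranes, one of 0.11. The summed list was 3023, 2998 and 2765 in columns 4 to 6 and 3258, 3181 and 2931 in columns 7 to 9, so the groups overlapped.

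The ribosomal, respiratory and imprinted lists held 1 gene each with an unadjusted p under 0.05, or 1.28%, 1.14% and 3.23%, beside 2.78% of all tested genes. Of 78 cytosolic ribosomal proteins tested, *Rpl9* was higher, with 469, 427 and 500 against 375, 394 and 327 normalized counts, and the median of the list was -0.01. Of 88 nuclear genes of the respiratory chain, *Ndufaf2*, an assembly factor of complex I, was higher, with 106, 58.1 and 75.9 against 62.1, 40.7 and 47.8. Of 31 imprinted genes tested, *Zrsr1* was lower, with 37.5, 64.9 and 57.1 against 75, 65.3 and 78.0. Lists of neuronal cytoskeleton and growth cone (32 tested), heat shock and unfolded protein response (18 tested), glycolysis and hypoxia (25 tested), cholesterol synthesis (20 tested), metallothioneins (2 tested) and replication-dependent histones (53 tested) had 0. The summed ribosomal, respiratory and histone lists were higher in columns 4 and 7 than in the other libraries of their labels, at 53505 and 54386 for the ribosomal proteins against 41203 to 46619.

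Among non-coding transcripts, some classes had more lower than higher genes in the libraries labelled het. Of 1182 tested genes of the annotation class TEC, unspliced transcripts still awaiting experimental evidence, 7 were higher and 48 lower, or 4.06% lower beside 1.48% of all genes. This class was singled out after its values were seen. Its median log2 fold change of -0.12 was -0.01 without column 4 and -0.26 without column 7, and its share of reads was 0.539% to 0.663% under the label het and 0.520% to 0.701% under wt. Of 130 small nuclear and nucleolar RNAs tested, 1 was higher and 13 lower (10.8%, beside 2.78% of all tested genes) with a median of -0.19 that was -0.11 without column 5 and -0.07 without column 9. *Snord118*, the U8 RNA of ribosomal RNA processing, had 9.78, 15.4 and 8.16 normalized counts in columns 4 to 6 and 41.4, 19.6 and 304 in columns 7 to 9. *Gm25099* had 111, 76.0 and 51.4 against 142, 154 and 821, and *Gm23287*, the gene called by DESeq2 (adjusted p = 0.0407), 1.63, 3.42 and 0.816 against 15.5, 8.42 and 72.9. In all of these column 9 was far above columns 7 and 8, and genes of this kind have near-identical copies, so their counts are uncertain.

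The 3 abundant genes with an unadjusted p under 0.05, named after their values were seen, were small non-coding RNAs of other classes. *Rny1* and *Rny3*, the Y RNAs, had 14058, 7252 and 4683 and 21100, 10176 and 5876 normalized counts in columns 4 to 6. In columns 7 to 9 *Rny1* had 12470, 11885 and 43584 and *Rny3* 17614, 18108 and 126259. Both overlapped between the labels, with column 9 the highest. *Rn7s1*, of the signal recognition particle RNA family, had 6688, 3415 and 2980 against 30203, 5875 and 7966, with column 7 the highest. Of 1470 long non-coding RNAs tested, 26 were higher and 27 lower (3.61%, beside 2.78% of all tested genes), while 51 were higher and 76 lower without overlap, beside 3.40% higher and 3.51% lower of all tested genes, or 577 and 597. Of 770 pseudogenes, 28 were higher and 19 lower (6.1%), while 36 were higher and 42 lower without overlap.

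The sex of the pooled embryos differed among the libraries of each label. *Xist*, which silences 1 X chromosome in female cells, had 49, 17 and 3590 reads in columns 4, 5 and 6 and 1679, 3676 and 64 reads in columns 7, 8 and 9. The 4 Y-linked genes summed to 606, 1058 and 3.26 in columns 4 to 6 and to 0, 505 and 1075 in columns 7 to 9. Each label therefore held 1 library with Y-linked sums near 0 and a high *Xist*, columns 6 and 7, and column 8 held both signals. The median of the Y-linked list moved from -2.31 without column 7 to 2.35 without column 6. With log2 *Xist* as a covariate the genes at this threshold were 298, with 104 higher and 194 lower, and 205 of the 473 were among them. The part of sex in single genes was not tested beyond this.

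Genes near the targeted locus were examined by their position. Of the 169 genes within 5 Mb of *Nkx2-9* on chromosome 12, 53 were tested, 1 was higher and 1 lower at an unadjusted p under 0.05 (3.77%, beside 2.78% of all tested genes), and the median log2 fold change was -0.06. These were *Clec14a*, an endothelial lectin (16.3, 10.2 and 8.16 against 0, 7.72 and 7.36 normalized counts, log2 fold change 1.54, or 0.51 without column 7), and *Gm24233*, a small nucleolar RNA gene (13.0, 30.7 and 37.5 against 56.9, 24.6 and 124). Over chromosomes 1 to 19 and X, the share with an unadjusted p under 0.05 ran from 0.81% on chromosome 16 to 3.71% on chromosome 6, with 2.46% of 691 genes on chromosome 12.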

How the data were processed

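RNA of E14.5 midbrain was sequenced in 9 libraries, 3 for each genotype. The series title speaks of cortical tissue and the sample labels of midbrain, and the labels and the paper's methods differ on RNA isolation and library preparation. Per the labels, the authors used FastQC, HISAT2, featureCounts, DESeq2 and DESeq with the mm10 genome, and versions are not given in the sources used here. The values are a signal per gene, DESeq2-normalized counts as the authors deposited them, that is reads divided by a size factor. All 210686 values above 0 came out as whole reads (within 0.05 reads), so reads were recovered. The 3 deposited tables of DESeq2 comparisons hold fold changes and p-values and were not used. Whether counting used strand is not stated in the sources used here, so counts of genes that overlap others are uncertain. Beside those named in the text, Dgka overlaps Pmel, Timeless Gm26847, Ankmy1 Gpc1, Gm6485 Gm43584, Kcnmb2 Gm37834, Pon2 Gm44424, Mybpc1 Gm48752, Gm37211 Adgrb3 and 8430422M14Rik Gm15952, and further genes of the lists overlap others too. Depth was 1692963 to 5942192 reads on genes.

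limma 3.58.1 in R 4.3.3 was fitted to log2(normalized count + 1) of all 9 libraries with a mean-variance trend, over the 16993 genes with a mean of at least 5, and p-values were adjusted by Benjamini-Hochberg over these genes. edgeR 4.0.16 (quasi-likelihood) and DESeq2 1.42.0 on the recovered reads were among 22 alternatives, and the fits were tested on simulated data. Exact permutation tests of 3 libraries against 3 were two-sided. Figures were drawn with matplotlib 3.10.9. Gene positions and overlaps are from GENCODE M21 (GRCm38), which matched 51719 of 51912 identifiers. Genes named were Nkx2-9, the 12 in each direction with the smallest unadjusted p among those whose values did not overlap, genes the paper names for this stage, list members with an unadjusted p under 0.05 or otherwise the highest means, and sex-linked genes. From these a selection is printed, and 3 genes of the rule are not reported here by themselves. The members and the 49 gene lists were chosen with earlier results of these data known.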

Additional observations from a re-analysis of the deposited data

How the results depend on the processing

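The count of genes with an unadjusted p under 0.05 (473 in limma) was 1137 without a minimum level, 242 with a minimum mean of 20, 280 with the 6 libraries alone, 264 in DESeq2, 298 with Xist and 790 with total reads as a covariate, 852 without columns 4 and 7, and 445 to 933 when single libraries were left out, highest without column 4. The adjusted count of 0 became 1 in DESeq2. The genes without overlap (1174) numbered 1788 without a minimum, 732 with a mean of 20, 5894 without columns 4 and 7, and 2376 to 3578 without single libraries. Fewer libraries make overlap rarer by construction, and the cause of the other shifts was not tested. Calls higher under the label het were 46.9% of 473, 54.2% after quantile normalization, 34.9% with Xist and 66.3% without column 9. The Nkx2-9 difference was 0.673 to 3.66 normalized counts without single libraries (2.12 with all). Of 144 values of the 24 leading genes without single libraries, 143 kept their side of the threshold. Under other settings 370 of 375 kept it, and 0 reversed in either. The leading genes were chosen for a small p in the same libraries, so this was likely from the start. Over all 230 named genes 989 of 1380 values without single libraries kept their side and 374 lost the call. Of the 473 genes, 1 changed sign after thinning and 1 without columns 4 and 7. No paired analysis was possible because the columns carry no replicate numbers. Columns 4 and 7 limit what can be seen among genes with few reads.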
